A study of Mus musculus with 5 samples.

Results

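Transcription by engaged RNA polymerase was followed at 44 genes that encode lineage transcription factors and belong to the group known as Polycomb targets in embryonic stem cells. The genes were taken by symbol from a fixed list with Hox genes left out: GATA, Pax, Nkx, Fox, Sox, LIM-homeodomain, T-box, basic helix-loop-helix and other homeobox factors. Of 37310 annotated mouse gene models, 43 carried the symbol of a member, and Sox1 was located by the sequence of its promoter. A comparison over all genes used 19893 models, 39 of them members. No Polycomb protein or histone mark was measured, so the binding named for the group is background and was not checked in these data.

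Polycomb repressive complexes modify histones at CpG-rich promoters and hold developmental regulators at low expression until a lineage is chosen. In embryonic stem cells many of these promoters carry repressive and activating histone marks together, and RNA polymerase has been described at some of them. At active genes polymerase often halts shortly after initiation before it is released into the gene body, which is called promoter-proximal pausing. The question here was whether polymerase sat at the promoters of these factors without reads in the gene body.

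Global run-on sequencing (GRO-seq) lets polymerases already on a gene resume transcription in nuclei supplied with Br-UTP, and the RNA that carries it is captured with an antibody and sequenced by strand. Mouse embryonic stem cells (MESC) were of line V6.5, at passages 12 to 14, grown on irradiated feeder cells in serum with LIF (3 samples). They were set against mouse embryonic fibroblasts (MEF) isolated from a male E13.5 embryo, at passage 2, grown in serum without LIF (2 samples). The labels give both cell types the background C57Bl/6(f) x 129/Sv(m) and name no mutation, transgene or drug.

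The samples of each cell type were pooled in the deposited reads, which leaves 1 library per cell type, no spread between replicates and no replicate check for any value. Depth was 8616592 reads for MESC and 6583644 reads for MEF, and the mean density between genes was 0.187 reads per kb on each strand for MESC and 0.11 for MEF. Intervals are exact 95% intervals for counting error only, and since reads carried no molecular identifiers, several may come from 1 molecule. Stem cell markers summed to 43.0 RPKM (reads per kb, scaled to library size) in MESC and 0.188 RPKM in MEF, where 3 of 7 markers (Zfp42, Tdgf1 and Lin28a) had no body read. Fibroblast markers, which the feeder cells share, summed to 2.02 RPKM in MESC and 100.0 RPKM in MEF, and none of the 7 was at 0 in MESC. Fewer cells of a type and less RNA per cell cannot be told apart in these bulk libraries.

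No compared member had a read promoter together with a body at background, in either library. A promoter counted as read with at least 5 sense reads in a window that runs from 50 bp upstream of the transcription start site (TSS) to 300 bp downstream of it. A body, from 1000 bp after the TSS to the gene's end, counted as above background when the lower bound of its Poisson interval exceeded the intergenic density. In MESC, 8 of 39 members had a read promoter, against 41.2% of all compared genes. In MEF, 6 of 39 members had one, against 35.2% of all genes. Sox9, Tbx15, Msx1 and Emx2 were read at the promoter in both libraries, Gata4, Pax6, Tbx20 and Olig2 in MESC, and Irx3 and En1 in MEF.

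Every read promoter among the members stood beside a body above background. This state, promoter and body together, held 8 members in MESC, against 40.4% of all genes, and 6 members in MEF, against 34.7% of all genes. Across all genes, the share of read promoters with a body at background was 2.08% in MESC (171 of 8204 genes) and 1.48% in MEF (104 of 7011 genes). With shares this low, 0 of 8 members in MESC and 0 of 6 in MEF are near the background. The answer moved with the settings: a minimum of 3 promoter reads gave 2 such members of 13 in MESC (Isl1 and Nkx2-5), against 3.32% of all genes with as many. Bodies counted from 3000 bp gave Msx1 in both libraries, 1 of 7 members in MESC and 1 of 5 in MEF, against 2.76% of all such genes in MESC and 2.33% in MEF. The Msx1 model is 4099 bp long, so this setting leaves only a short stretch of it. The 35-base MESC reads alone gave Emx2 and Msx1, 2 of 6 members, against 1.80% of all such genes. Those of 36 bases gave 0 of 4, against 2.11%, and both sets hold fewer reads than the whole. Isl1 had 3 promoter reads, 14 to 87 bp after the TSS, and 0 body reads over 10.4 kb in MESC, against 1 promoter read and 2 body reads in MEF. Nkx2-5 had 3 promoter reads, 140 to 250 bp after the TSS, and 1 body read over 1.9 kb in MESC, against none in either window in MEF.

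Most members fell in the other 2 states. A body above background with fewer than 5 promoter reads was found for 19 members in MESC, against 24.5% of all genes, and for 15 members in MEF, against 26.4% of all genes. These states use the start of each gene's longest model. Of the members in this state in MESC, Gata2, Eomes and Wt1 reached 5 promoter reads there at their most-read annotated start. Neither promoter nor body passed for 12 members in MESC, against 34.3% of all genes, and for 18 members in MEF, against 38.4% of all genes. Counted by bodies alone, 27 of 39 members (69.2%) were above background in MESC, against 64.8% of all genes, and 21 (53.8%) in MEF, against 61.1% of all genes. The members' share that passed was thus close to that of all genes for bodies and lower for promoters. For promoters it was 20.5% against 41.2% in MESC and 15.4% against 35.2% in MEF, a description that carries no test. The criteria are unlike, since a body passed at as little as 0.77 reads per kb in MESC (Msx2). Mean body density was lower for members: 2.27 reads per kb in MESC and 2.32 in MEF, against 7.05 and 4.88 for all genes. Pax2, Pax7, Nkx2-5, Nkx6-1, Foxa2, Neurog2 and Isl1 passed neither criterion in either library.

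**Figure D1:**
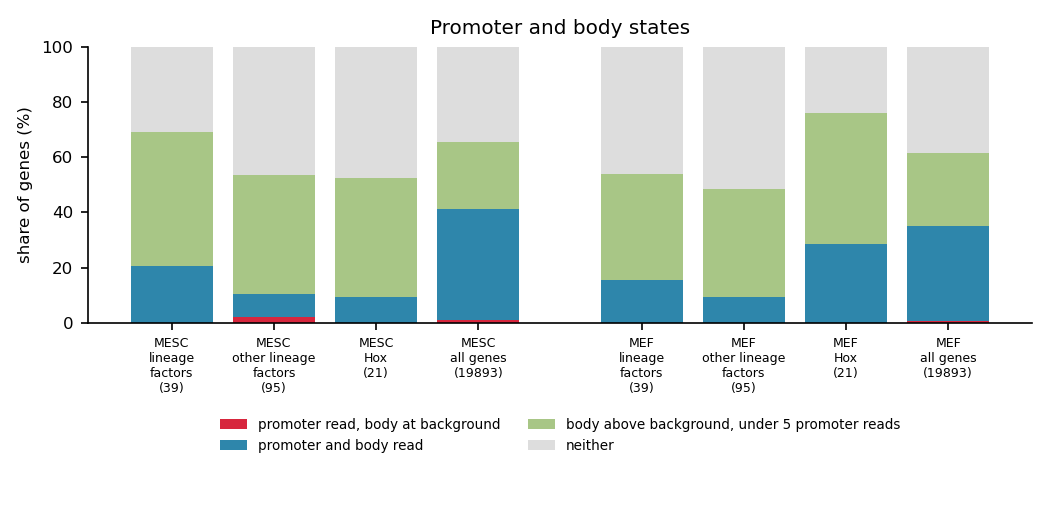
Share of compared genes (%) in each of 4 promoter and body states, for the 39 lineage factor genes, 95 other lineage factor genes, 21 Hox genes and all 19893 genes, in MESC (left) and MEF (right). The lineage factors have no share with a read promoter and a body at background, and a larger share than all genes with a body above background and under 5 promoter reads. Promoter reads are counted at the start of each gene's longest model.

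Sequencing depth bears on this answer. In a window of this length, 0 reads still allow a density of up to 8.57 reads per kb (3 reads; the two-sided interval drawn in the plot of densities ends at 10.5), which is more than the body density of all 19 MESC members in the body-only state (0.77 reads per kb at Msx2 to 7.57 at Wt1). At these body densities, polymerase spread evenly would have put 0.27 reads (Msx2) to 2.65 reads (Wt1) in the promoter window, all under the minimum of 5. Wt1 itself had 1 at the start of its longest model and 5 at its most-read annotated start. No promoter read at all was seen for 18 members in MESC, against 38.8% of all genes, and for 25 members in MEF, against 45.3% of all genes. Among genes with 1 to 5 body reads per kb, 5 of 21 members had a read promoter in MESC, against 46.1% of all genes in that range. In MEF, 1 of 10 members did, against 51.4% of all genes in that range.

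**Figure D2:**
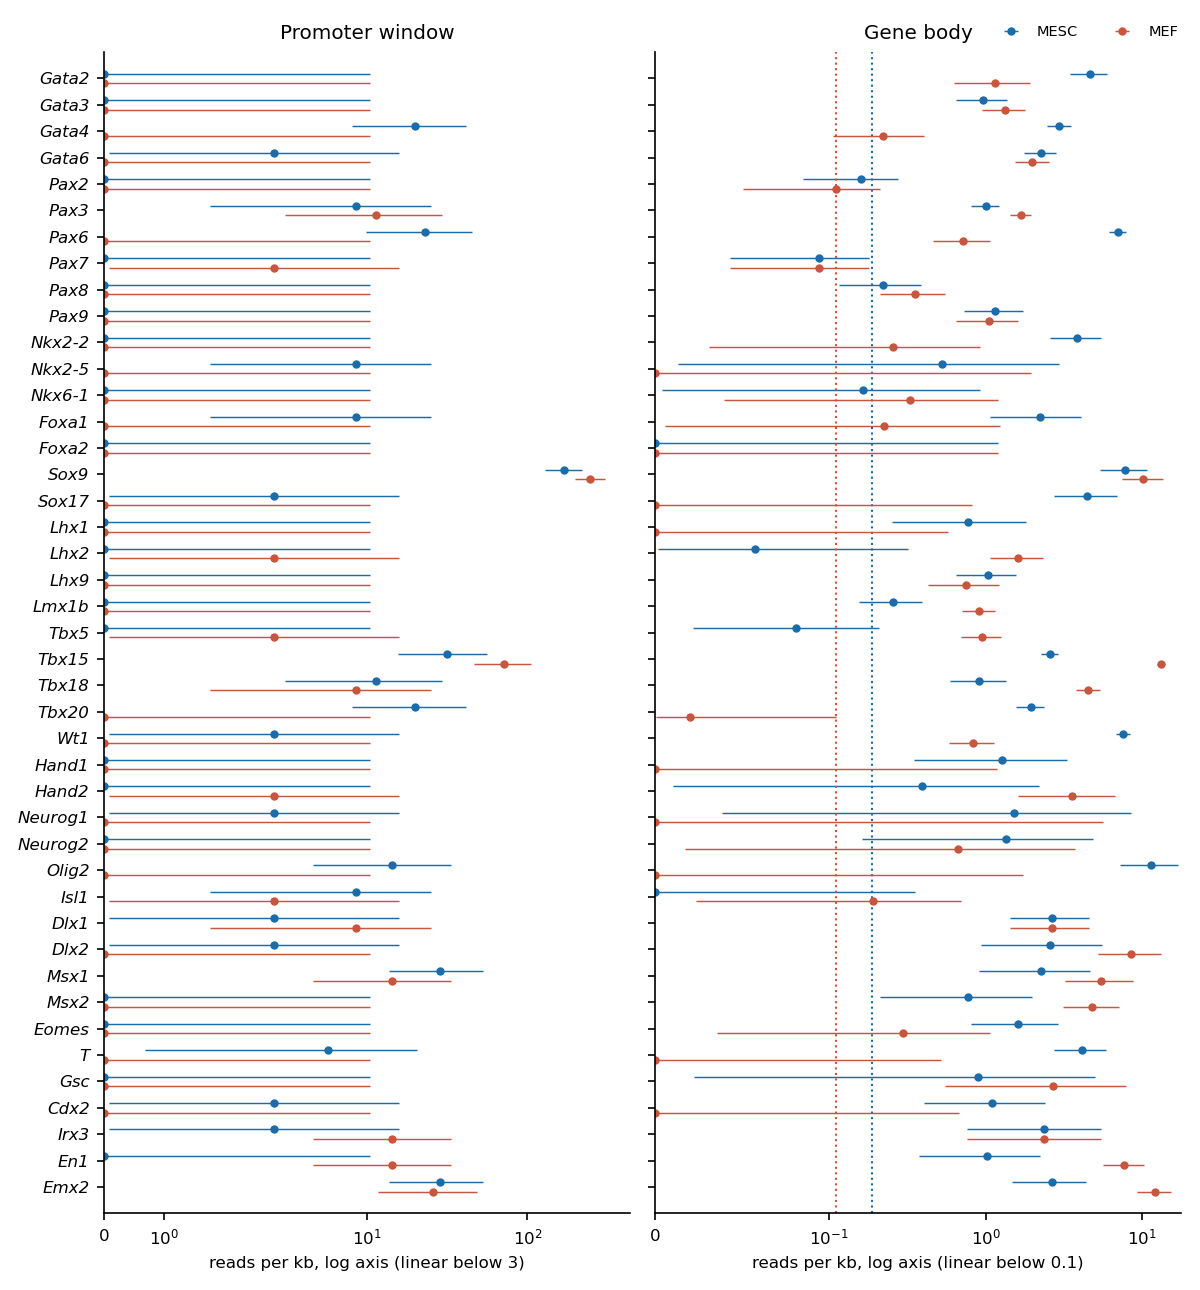
Read density (reads per kb, log axis that is linear near 0) in the promoter window (left) and gene body (right) of the 43 annotated members, in MESC (blue) and MEF (red). Bars are exact 95% Poisson intervals and dotted lines mark the intergenic density, 0.187 in MESC and 0.11 in MEF; Sox9 stands apart at the promoter in both libraries, while many windows hold 0 reads.

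Sox9, the SRY-related factor that directs cartilage and testis formation, carried the most promoter reads of any member in both libraries. The gene lies at chr11:112643538-112649074 of mm9 on the plus strand. Its promoter held 59 reads in MESC and 86 in MEF, and its body 35 reads in MESC and 46 in MEF. Promoter density exceeded body density 21.9-fold in MESC (one-sided Fisher exact test with Benjamini-Hochberg adjustment, adjusted p = 6.86e-41) and 24.2-fold in MEF (same exact test, adjusted p = 6.91e-60). This quotient of promoter and body density is the pausing index, and the test compares the reads of both windows within 1 library. The reads were focused: 46 of 59 in MESC and 70 of 86 in MEF began within the 100 bp after the TSS, and position 2 alone held 14 in MESC and 19 in MEF. Upstream, 6 antisense reads were counted in MESC and 6 in MEF, with a TSS of BC006965 within 2000 bp. Sox9 alone supplied 41.5% of all promoter reads of the compared members in MESC and 57.3% in MEF.

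Tbx15 (chr3:99057683-99158182, plus strand), a T-box factor of the limb and trunk skeleton, had 11 promoter reads in MESC and 25 in MEF, over bodies with 255 reads in MESC and 1306 in MEF. Its pausing index was 12.3 in MESC (Fisher exact test, adjusted p = 9.68e-09) and 5.44 in MEF (Fisher exact test, adjusted p = 1.5e-10). Its reads lay farther from the TSS than those of Sox9, with a median position of 83 bp in MESC and 103 bp in MEF, against 2 bp in both libraries for Sox9. A lower index in MEF thus stood beside more reads in both windows there, and the difference between the indices was not tested.

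Emx2 (chr19:59533180-59539847, plus strand), a homeobox factor of the dorsal forebrain and urogenital tract, had 10 promoter reads in MESC and 9 in MEF. Its body held 15 reads in MESC and 68 in MEF, which gave indices of 10.8 in MESC (Fisher exact test, adjusted p = 1.24e-06) and 2.14 in MEF (Fisher exact test, adjusted p = 0.0412). Promoter reads were thus nearly even between the libraries while body reads were higher in MEF. Msx1 (chr5:38211724-38215822, minus strand), a homeobox factor of craniofacial mesenchyme and neural crest, had 10 promoter reads in MESC and 5 in MEF, and 7 body reads in MESC and 17 in MEF. Its index was 12.6 in MESC (Fisher exact test, adjusted p = 2.16e-06) and 2.60 in MEF, where it did not pass the exact test (adjusted p = 0.0742).

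Along the Msx1 body the reads lay towards the TSS. When it was divided at the midpoint, only 1 of 7 reads in MESC and 2 of 17 in MEF lay in the downstream part. Counting from 3000 bp turned the call in both libraries, but the model is only 4099 bp long. That setting leaves a short stretch past the midpoint, with at most 1 read in MESC and 2 in MEF. Across members with at least 20 body reads, the median share of reads past the midpoint was 49.9% in MESC (16 members) and 50.6% in MEF (14 members), against 49.5% in MESC and 48.0% in MEF for all genes.

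The promoters of Emx2 and Msx1 are shown because, of the compared members, they had the most promoter reads in MESC after Sox9 and Tbx15. Those of Tbx20 and Eomes were chosen after their values were seen, as a promoter read in MESC alone and as one that the annotated model had missed. Each runs 5′ to 3′ on the gene's strand from 250 bases before to 50 bases after the RefSeq start (RefSeq table of GRCm38.p6, placed on NCBIM37, which is mm9, by exact match), and capitals mark bases at which a sense read of either library began. The mm9 intervals are chr19:59532930-59533229 (plus strand) for Emx2, chr5:38215775-38216074 (minus strand) for Msx1, chr9:24578698-24578997 (minus strand) for Tbx20 and chr9:118387057-118387356 (plus strand) for Eomes.
Emx2: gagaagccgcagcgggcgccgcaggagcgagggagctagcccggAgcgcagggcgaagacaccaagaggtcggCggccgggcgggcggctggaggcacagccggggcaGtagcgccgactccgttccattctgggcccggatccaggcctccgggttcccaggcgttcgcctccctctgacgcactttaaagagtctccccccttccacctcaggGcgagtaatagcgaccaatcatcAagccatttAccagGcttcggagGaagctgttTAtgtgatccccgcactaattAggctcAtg
Msx1: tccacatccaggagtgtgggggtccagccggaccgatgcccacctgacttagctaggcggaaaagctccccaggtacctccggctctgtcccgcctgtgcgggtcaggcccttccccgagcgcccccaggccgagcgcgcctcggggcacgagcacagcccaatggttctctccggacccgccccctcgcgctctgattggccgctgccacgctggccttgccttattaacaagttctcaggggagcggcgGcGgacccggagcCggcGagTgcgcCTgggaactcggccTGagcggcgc
Tbx20: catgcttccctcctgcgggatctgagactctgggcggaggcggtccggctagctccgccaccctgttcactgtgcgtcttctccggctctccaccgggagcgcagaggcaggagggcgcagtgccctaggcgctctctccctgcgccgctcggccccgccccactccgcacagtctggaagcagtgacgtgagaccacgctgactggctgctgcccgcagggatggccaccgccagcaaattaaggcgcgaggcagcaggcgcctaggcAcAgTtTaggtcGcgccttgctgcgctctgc
Eomes: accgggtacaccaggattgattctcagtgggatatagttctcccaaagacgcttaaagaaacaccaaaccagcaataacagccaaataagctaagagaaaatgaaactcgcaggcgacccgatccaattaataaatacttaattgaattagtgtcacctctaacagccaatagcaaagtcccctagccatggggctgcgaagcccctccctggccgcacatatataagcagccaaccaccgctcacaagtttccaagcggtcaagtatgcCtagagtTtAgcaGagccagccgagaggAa
In the Msx1 stretch all 9 marked bases lie at or after the start, while the 12 marked bases of Emx2 are spread over the stretch and include upstream positions. The Tbx20 stretch has 5 marked bases, which hold 5 reads in MESC and 0 in MEF, and the Eomes stretch has 5, with 4 reads in MESC and 1 in MEF.

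These promoters were rich in CpG, as promoters of Polycomb targets are known to be. RefSeq promoters were matched for 35 of the 44 members (42 promoters). Their median GC content was 62.0%, against 52.7% over all 32851 promoters, and the median ratio of observed to expected CpG was 0.778, against 0.384. A ratio of at least 0.6 was found for 35 of 42 promoters (83.3%), against 35.8% of all promoters. Searched on both strands, TATAAA was present in 7.14% of the members' promoters and 13.6% of all promoters, CCAAT in 54.8% of the members' and 37.4% of all promoters, and GGGCGG in 61.9% of the members' and 35.7% of all promoters. The motifs share end letters and can overlap, and a match is a string of letters, not a binding site.

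**Figure D3:**
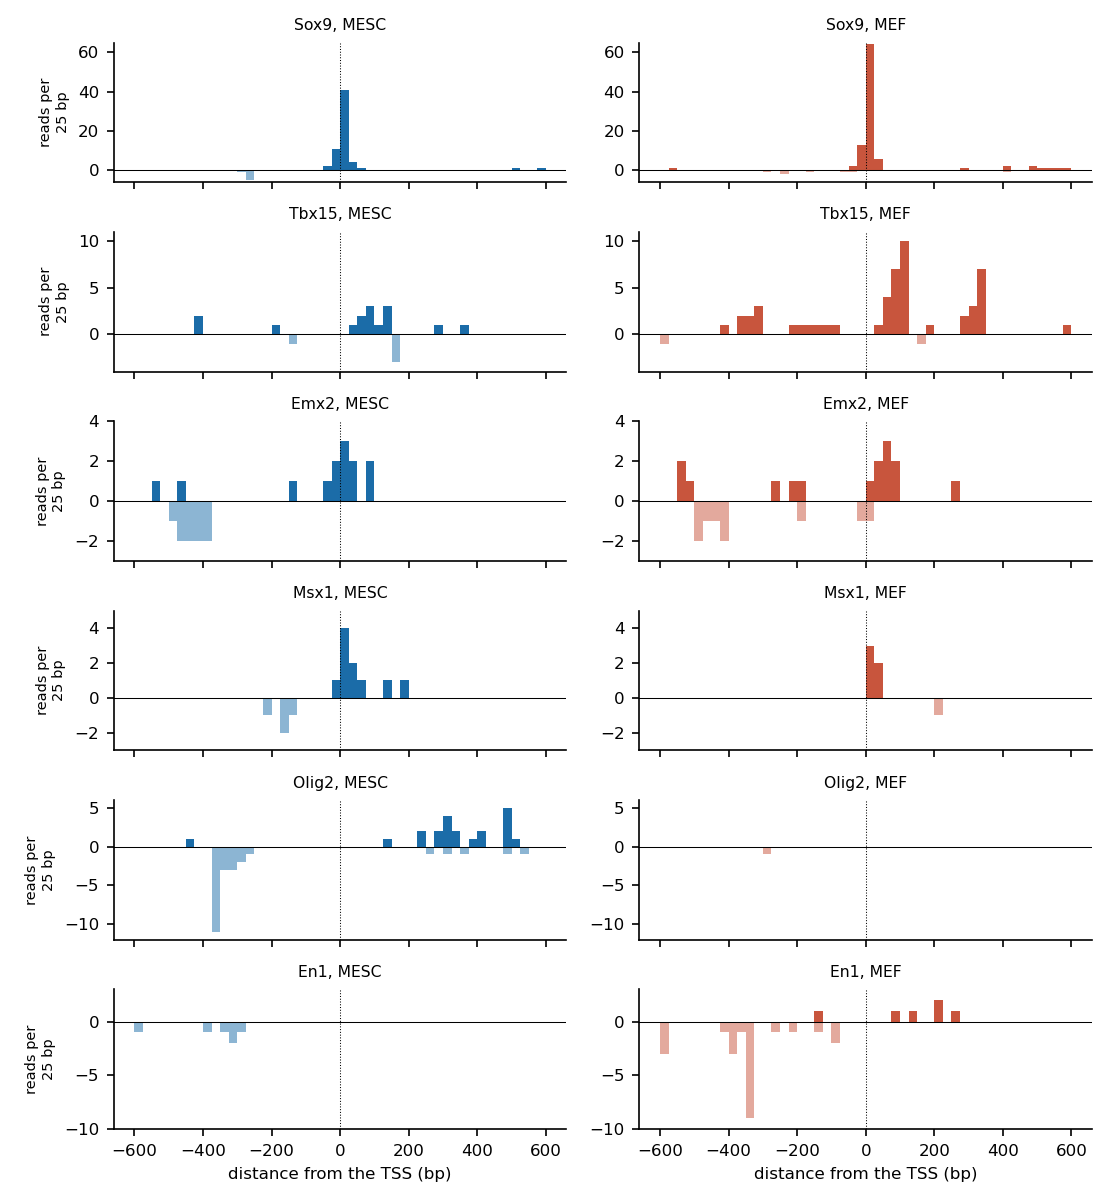
Reads per 25 bp by distance of their 5′ end from the TSS (bp), sense above and antisense below 0, for Sox9, Tbx15, Emx2, Msx1, Olig2 and En1 in MESC (left) and MEF (right). Sox9 reads pile up at the TSS in both libraries. Olig2 in MESC and En1 in MEF have more antisense reads in the 500 bp upstream than sense reads in the promoter window, which ends at 300 bp. Olig2 has further sense reads past that end.

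In MESC alone, 4 further promoters passed the minimum of 5 reads. Gata4 (chr14:63817759-63864108, minus strand), a zinc-finger factor of heart and endoderm, had 7 promoter reads in MESC and 0 in MEF. Tbx20 (chr9:24527648-24578746, minus strand), a T-box factor of the heart, also had 7 in MESC and 0 in MEF. Pax6 (chr2:105509053-105543317, plus strand), the paired-box factor of eye and forebrain, had 8 in MESC and 0 in MEF. Their MESC indices were 6.77 for Gata4 (Fisher exact test, adjusted p = 0.00018), 10.3 for Tbx20 (Fisher exact test, adjusted p = 1.52e-05) and 3.28 for Pax6 (Fisher exact test, adjusted p = 0.00529).

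Olig2 (chr16:91225795-91228922, plus strand), a helix-loop-helix factor of motor neurons and oligodendrocytes, did not pass this test. It had 5 promoter reads in MESC and 0 in MEF, over 24 body reads in MESC and 0 in MEF, with an MESC index of 1.27 (Fisher exact test, adjusted p = 0.412). Its sense reads began no closer than 126 bp after the TSS, and it did pass in a wider window that spans 200 bp upstream and 500 bp downstream of the TSS. In MEF, Irx3, an Iroquois homeobox factor of the neural tube, had 5 promoter reads over 5 body reads (index 6.07, Fisher exact test, adjusted p = 0.00959), with 1 promoter read over 5 body reads in MESC. En1 (chr1:122498995-122505873, plus strand), a homeobox factor of the midbrain-hindbrain boundary and ventral limb ectoderm, had 0 promoter reads in MESC and 5 in MEF, and its MEF index of 1.87 did not pass (Fisher exact test, adjusted p = 0.161).

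A paused promoter, with an index of at least 2 and an adjusted p under 0.05, was thus found for 7 of 8 members with a read promoter in MESC, against 86.3% of all such genes. In MEF it was found for 4 of 6, against 87.2%. The share in MESC is near the background and is no result about the members. Entry to the test needed at least 5 promoter reads, so genes were selected on the window that was then tested. At its body density in MESC, Tbx20 would have had 0.678 promoter reads, so entry alone made a pass likely. The adjusted p-values are conditional on that entry. With each position and strand counted once, Pax6 in MESC and Emx2 in MEF no longer passed, and with MESC reads thinned to the MEF depth Gata4 no longer passed in MESC. The same wider window also ended the calls of Pax6 in MESC and Emx2 in MEF.

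Added over the 39 compared members, promoter windows held 142 reads in MESC and 150 in MEF, a mean of 3.64 reads in MESC and 3.85 in MEF. All compared genes averaged 14.0 promoter reads in MESC and 9.72 in MEF. The summed promoter density was 5.73 times the summed body density in MESC and 4.50 times in MEF, against 9.34 times in MESC and 8.61 times in MEF for all genes. Without Sox9 the members' values were 3.50 in MESC and 2.00 in MEF, so a single gene carried much of the summed peak.

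**Figure D4:**
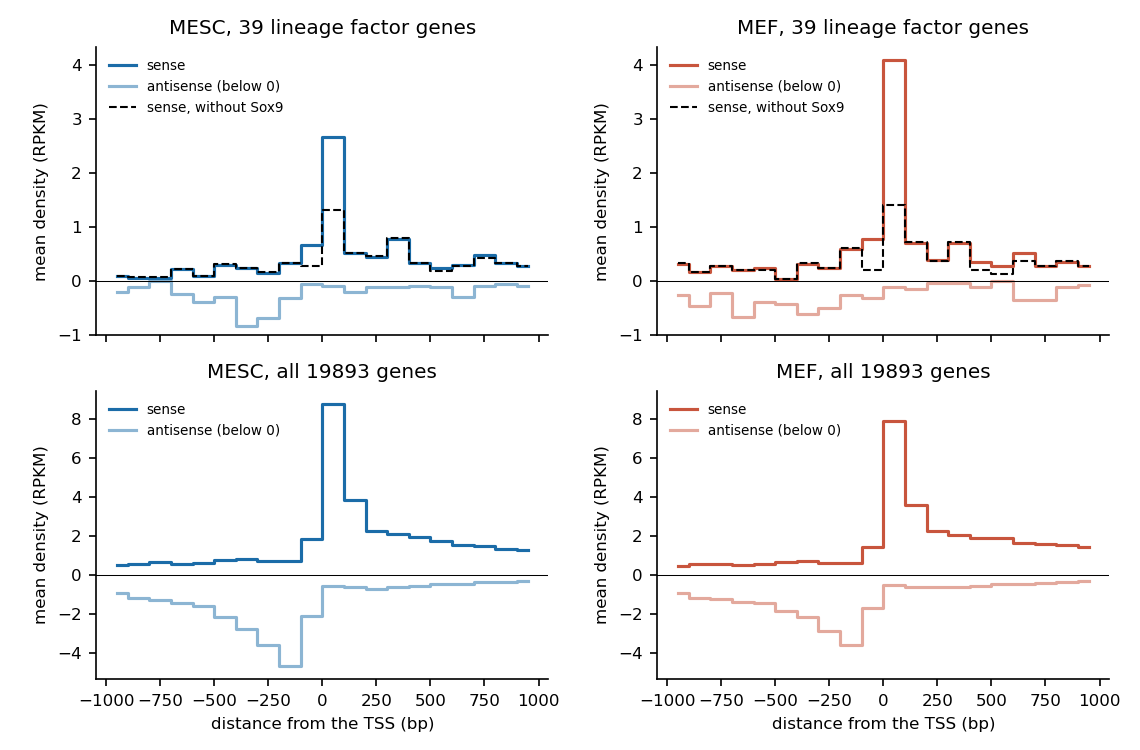
Mean read density (RPKM) in 100-bp bins over the 1000 bp on either side of the TSS, sense above and antisense below 0, for the 39 compared members (top) and all 19893 genes (bottom; different scale) in MESC (left) and MEF (right). The dashed line leaves out Sox9, without which the members' peak after the TSS is lower in both libraries.

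Upstream antisense transcription, the divergent partner of many active promoters, was counted at few of these genes. At least 5 antisense reads in the 500 bp upstream were counted in MESC at 2 of 29 members (Olig2 and En1), against 32.3% of 17396 genes. These are models of at least 2000 bp with no other annotated TSS within 2000 bp, among them Pax8, whose body could not be compared. In MEF there were also 2 of 29 (En1 and Tbx18), against 23.9% of genes. Compared members averaged 1.9 upstream antisense reads in MESC and 1.41 in MEF, against 13.2 in MESC and 8.02 in MEF for all genes.

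At Olig2 and En1 the antisense reads in the 500 bp upstream outnumbered the sense reads in the promoter window, which is shorter and ends 300 bp after the TSS. At Olig2 in MESC further sense reads lay past that end, among them 4 at 300 to 325 bp and 5 at 475 to 500 bp. The antisense excess at Olig2 thus depends on where the sense window ends. Olig2 had 20 upstream antisense reads in MESC and 1 in MEF, and the MESC reads began at 15 distinct positions between -371 and -270 bp relative to the TSS. En1 had 5 upstream antisense reads in MESC and 19 in MEF, with a median position of -333 bp in MEF, which alone held 6 reads. Tbx18 (chr9:87597635-87626095, minus strand), a T-box factor of somites and epicardium, had 4 in MESC and 9 in MEF, beside 4 promoter reads in MESC and 3 in MEF. Emx2, whose antisense partner Emx2os starts nearby, had 9 in MESC and 8 in MEF and was left out of the count for that reason.

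The choice of start changed the count for some promoters. Gata2 (chr6:88143885-88157024, plus strand), a zinc-finger factor of blood progenitors, had 0 promoter reads in either library at the start of its longest model, but 8 in MESC and 2 in MEF at the RefSeq start, 4773 bp downstream. Eomes, a T-box factor of trophoblast and early mesendoderm, had none at the model's start and 6 in MESC and 2 in MEF at the RefSeq start. For Msx2, a relative of Msx1, the RefSeq start gave 3 in MESC and 6 in MEF, again against none at the model's start. With RefSeq starts, an alternative added after the data were seen, read promoters with a read body numbered 10 of 41 members in MESC and 7 in MEF, against 42.3% of all genes in MESC and 36.5% in MEF. There was still no member with a body at background in either library, against 2.03% of all genes with a read promoter in MESC and 1.43% in MEF. Taking the most-read annotated start gave 11 of 41 in MESC and 6 in MEF, against 45.6% of all genes in MESC and 39.8% in MEF, again with none at background, and 24 promoter reads for Pax6 in MESC against 1 in MEF.

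Body reads stood at least 4-fold apart between the cell types for 8 of the 11 members with enough reads, with 4 on either side. A ratio was formed from bodies with at least 50 reads in 1 library, which 11 of 39 members and 47.7% of all genes had. Gata4, Pax6, Tbx20 and Wt1 (4 of 11) passed 4-fold towards MESC, as did 8.00% of 9488 genes. Lmx1b, Tbx15, Tbx18 and Emx2 (4 of 11) passed it towards MEF, as did 5.50% of genes. Of these 8 members only Tbx15 had at least 50 reads in both libraries. The others met the minimum only through the library where they were higher, which favours large ratios, and the same minimum admitted all genes. Lmx1b no longer passed with the most-read annotated start or with the 35-base MESC reads alone (log2 of -1.97 in both). Emx2 no longer passed with the 36-base MESC reads alone (log2 of -1.87, against -3.78 with those of 35 bases and -2.56 with all), and with bodies from 3000 bp it had fewer than 50 reads, as Tbx20 had with the 35-base MESC reads. Ratios are MESC over MEF after scaling to reads outside the mitochondrial genome and compare these 2 libraries. Gata2, Gata6 and Pax3 stayed under 4-fold.

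Among GATA factors, Gata4 had 134 body reads in MESC and 10 in MEF, a ratio of 10.3 (95% interval 5.42 to 21.9). Gata2 had 56 in MESC and 14 in MEF, a ratio of 3.07 (1.68 to 5.97). Gata6, the factor of primitive endoderm, had 72 in MESC and 64 in MEF, a ratio of 0.862 whose interval (0.607 to 1.23) includes no difference. The GATA genes thus did not move together. Gata3, a factor of T cells and trophoblast whose model shares its strand with 9230102O04Rik, was not compared and had 30 body reads in MESC and 41 in MEF.

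Of the paired-box factors, Pax6 had 232 body reads in MESC and 24 in MEF, a ratio of 7.41 (4.86 to 11.8). Pax3 (chr1:78097845-78193709, minus strand), a factor of neural crest and muscle progenitors, had 95 in MESC and 158 in MEF, a ratio of 0.461 (0.354 to 0.598). Pax2 of kidney and midbrain had 13 reads over 81.2 kb in MESC and 9 in MEF, and Pax7 of muscle stem cells had 9 over 95.5 kb in both libraries. Both lay at the intergenic background in both libraries, with upper bounds for Pax2 of 0.274 reads per kb in MESC and 0.21 in MEF. Pax8 (12 body reads in MESC, 19 in MEF) and Pax9 (23 in MESC, 21 in MEF) overlap another gene on their strand and were not compared.

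The T-box genes split by cell type. Tbx20 had 97 body reads in MESC and 1 in MEF, a ratio of 74.4 with a wide interval (13.0 to 2970). Tbx15 had 255 in MESC and 1306 in MEF, a ratio of 0.15 (0.13 to 0.171). Tbx18 had 25 in MESC and 124 in MEF, a ratio of 0.155 (0.0963 to 0.239). Tbx5, the factor of forelimb and heart, had 4 in MESC and 47 in MEF, just under the minimum of 50 reads. T (brachyury), the factor of nascent mesoderm, had 29 in MESC and 0 in MEF, which with 3 reads as the floor in MEF is at least 7.41-fold higher in MESC; the exact 95% interval, which also counts the error of the MESC reads, begins at 5.65. Eomes had 11 in MESC and 2 in MEF.

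Wt1 (chr2:104966686-105013771, plus strand), the zinc-finger factor of kidney and gonad, had the most body reads of any member in MESC, 349, against 38 in MEF, a ratio of 7.04 (5.03 to 10.1). Its promoter window held 1 read in MESC and 0 in MEF at the start of the longest model. At the most-read annotated start, 4354 bp downstream, it held 5 in MESC and 1 in MEF. Upstream of the longest model, 5 antisense reads were counted in MESC and 1 in MEF, with a TSS of AI314831 within 2000 bp. Lmx1b (chr2:33416485-33496031, minus strand), a LIM-homeodomain factor of dorsal limb and midbrain neurons, had 20 body reads in MESC and 71 in MEF, a ratio of 0.216 (0.125 to 0.359). Emx2 had a ratio of 0.169 (0.0898 to 0.299) from the body reads given above. Both factors and the 2 T-box genes were thus higher in MEF.

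**Figure D5:**
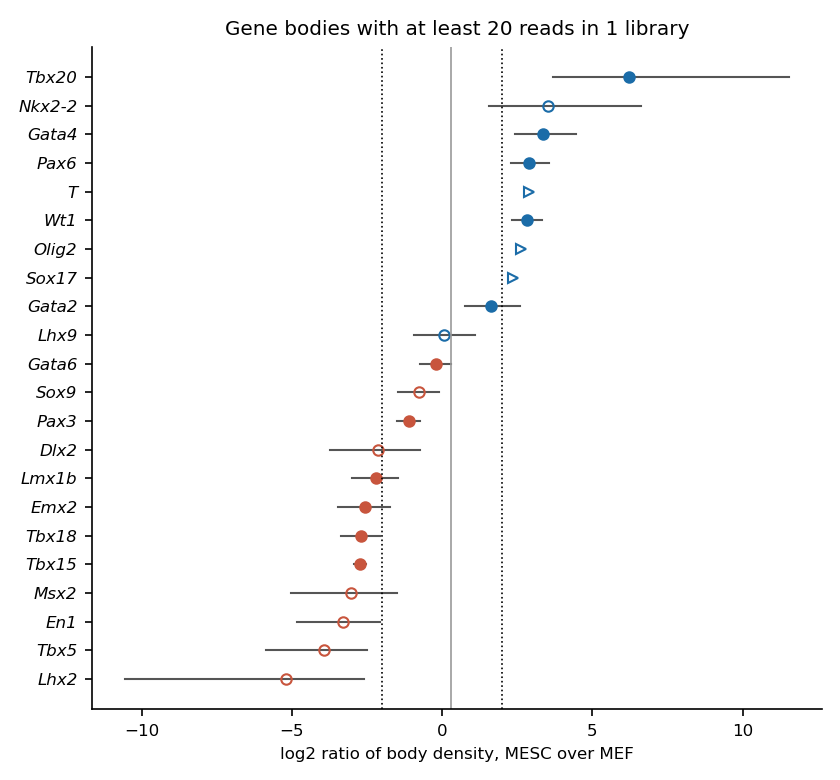
Log2 ratio of body density, MESC over MEF, for compared members with at least 20 body reads in 1 library. Lines are exact 95% intervals, and filled symbols have at least 50 reads. Triangles are genes with 0 reads in MEF, set against a floor of 3 reads without the counting error of the MESC reads. The exact interval of Sox17, 1 of these, begins at 3.78, under 4-fold. Dotted lines mark 4-fold, and the grey line marks the median of all tested genes (0.30). Among filled symbols Tbx20, Gata4, Pax6 and Wt1 lie right of the upper dotted line and Lmx1b, Emx2, Tbx18 and Tbx15 left of the lower one.

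Members under 50 body reads also stood apart in both directions. Nkx2-2 of ventral neural tube and pancreas had 30 reads in MESC and 2 in MEF, a ratio of 11.5 (2.92 to 99.3). Sox17, the endoderm factor, had 20 in MESC and 0 in MEF, which by the same floor is at least 5.11-fold higher in MESC, though the exact interval begins at 3.78, under 4-fold. Olig2 was at least 6.13-fold higher in MESC by that floor, with an interval from 4.61. In the other direction, En1 had 6 in MESC and 45 in MEF, Lhx2 of eye and forebrain had 1 in MESC and 28 in MEF, Msx2 had 4 in MESC and 25 in MEF, and Dlx2 of the ventral forebrain had 6 in MESC and 20 in MEF. With the minimum lowered to 20 body reads, 8 of 22 members passed 4-fold towards MESC, against 10.2% of all genes, and 9 towards MEF, against 6.14%. This minimum, too, could be met in 1 library alone.

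Several members had even or nearly even counts. Dlx1, the neighbour of Dlx2, had 13 body reads in MESC and 13 in MEF, and Irx3 had 5 in each. Lhx9 of gonad and limb had 22 in MESC and 16 in MEF, a ratio of 1.05 (0.529 to 2.15). Sox9 had a body ratio of 0.583 (0.365 to 0.925) from fewer than 50 reads.

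Counts too low for a ratio remained for the other members. The pioneer factor of endoderm Foxa1 had 10 body reads in MESC and 1 in MEF, and Foxa2 had none in either. Lhx1 of the head organizer and kidney (5 in MESC, 0 in MEF), Cdx2 of trophoblast and hindgut (6 in MESC, 0 in MEF) and Hand1 of trophoblast and heart (4 in MESC, 0 in MEF) were read in MESC alone. Hand2 of heart and limb had 1 in MESC and 9 in MEF, and Gsc of the organizer 1 in MESC and 3 in MEF. Nkx2-5 of the heart and Isl1 of heart and motor neurons, whose counts are given above, Nkx6-1 of motor neuron progenitors and beta cells (1 in MESC, 2 in MEF) and Neurog2, a proneural factor (2 in MESC, 1 in MEF), had almost none. Neurog1, its proneural relative, was shorter than 2000 bp and had 1 body read in MESC and 0 in MEF. Without a body read were 2 compared members in MESC and 8 in MEF.

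Promoter ratios could be formed for Sox9 and Tbx15 only, which reached 20 reads in 1 library as 21.8% of all genes did. The Sox9 promoter ratio was 0.526 (0.371 to 0.741) and that of Tbx15 was 0.337 (0.15 to 0.711). Neither passed 4-fold, against 6.10% of 4345 genes higher in MESC and 3.01% higher in MEF.

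Feeder cells are fibroblasts, and their share in the MESC values of MEF-high members was not tested. Fibroblast markers had an MESC-over-MEF ratio of 0.0201 in summed density, while that of the 4 members called higher in MEF lay between 0.15 (Tbx15) and 0.216 (Lmx1b). Primitive endoderm markers summed to 5.92 RPKM in MESC and 19.2 RPKM in MEF, neural markers to 6.95 RPKM in MESC and 4.1 RPKM in MEF, and trophoblast markers to 1.69 RPKM in MESC and 0.893 RPKM in MEF. These lists stand beside Gata4, Gata6 and Sox17, beside Pax6 and Olig2, and beside Eomes and Cdx2, and their part in those values was not tested. Of the trophoblast markers, Elf5 had 1 body read in MESC and 0 in MEF, and Ascl2 had 2 and 1. Tcfap2c had 0.828 RPKM in MESC and 0.0379 in MEF, Tead4 0.551 and 0.507, and Krt7 0.145 and 0.243.

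Sox1, the earliest Sox factor of neuroectoderm, has no model of its own in the annotation and lies inside Gm5607 on chromosome 8. From its start, placed at position 12395519 on the plus strand of mm9, its promoter window held 17 reads in MESC and 2 in MEF. The stretch of 2000 bp that begins 1000 bp after the start held 35 reads in MESC (17.5 per kb) and 3 in MEF (1.5 per kb). The body of Gm5607 as a whole had 2.9 reads per kb in MESC and 0.661 in MEF. Sox1 was thus read downstream of its start as well as at it in MESC, and reads of Gm5607 cannot be told apart from its own.

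Strand counts in the bodies showed antisense transcription at a few members. Sense reads made up 83.7% of body reads over the compared members in MESC and 93.0% in MEF, against 84.9% in MESC and 85.6% in MEF for all genes. Pax6, with a TSS of Pax6os1 within 2000 bp of its own, had 93 antisense body reads in MESC and 44 in MEF, where they exceeded its 24 sense reads. Eomes had 40 in MESC and 4 in MEF, against 11 sense reads in MESC and 2 in MEF. Dlx1, which shares its locus with Dlx1as, had 18 in MESC and 7 in MEF, and Emx2 had 8 in MESC and 36 in MEF.

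Other gene lists were read in the same way. Among 95 compared lineage factors outside the member list, 10 had a read promoter in MESC and 9 in MEF, and their median body density was 0.109 RPKM in MESC and 0.0576 RPKM in MEF. The members' medians were 0.156 RPKM in MESC and 0.114 RPKM in MEF, against 0.234 RPKM in MESC and 0.181 RPKM in MEF for all genes. The state sought here did occur in that list: Sox8, a relative of Sox9, had 49 promoter reads over 1 body read in MESC, and Myod1, the muscle determination factor, had 8 over 0. In MEF no gene of that list had it, and Sox8 had 30 promoter reads over 9 body reads. Another TSS lies within 2000 bp of that of Sox8.

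Hox genes, also Polycomb targets, had a read promoter for 2 of 21 compared genes in MESC and 6 in MEF, with median body densities of 0.111 RPKM in MESC and 0.399 RPKM in MEF. Hoxb9 had 10 promoter reads in each library. Pluripotency factors had a read promoter for 7 of 12 compared genes in MESC and 2 in MEF, and their median body density was 2.64 RPKM in MESC and 0.0858 RPKM in MEF. Pou5f1, which encodes the pluripotency factor Oct4, had 61 promoter reads in MESC and 0 in MEF, and Klf2 had 25 in each.

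Genes of the Polycomb machinery were transcribed in both libraries. All 11 genes of the PRC2 list had bodies above background in both, with median densities of 2.47 RPKM in MESC and 1.38 RPKM in MEF, and none of the 10 with enough body reads was 4-fold different. Ezh2, the methyltransferase subunit, had 896 body reads in MESC and 429 in MEF, and Mtf2, an accessory subunit, had 1144 in MESC and 383 in MEF. Of the PRC1 list, all 18 compared genes were above background in both libraries, and of the 14 with enough body reads 3 passed 4-fold towards MESC and 1 towards MEF. Cbx7, a chromobox subunit that reads methylated histone H3, had 2199 body reads in MESC and 19 in MEF, and its promoter 202 in MESC and 0 in MEF. Kdm2b, which recruits PRC1 to CpG islands, had 1550 body reads in MESC and 264 in MEF.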

How the data were processed

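GRO-seq reads of 3 MESC and 2 MEF samples were used. The deposited files list 1 aligned read per line with position, strand and a value of 1, which makes the unit a raw read count without normalization, and per the file headers the authors pooled the samples of a cell type. The build is mm9, per the submitters' processing notes; the treatment of duplicate reads is not given in the sources used here. When 1 read in 400 was checked against NCBIM37, 93.0% of those from MESC and 95.5% of those from MEF fitted with at most 2 mismatches. Distinct positions made up 74.4% of MESC and 71.3% of MEF reads.

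GENCODE models for NCBIM37 were used, the longest transcript per gene. Of 22885 models of at least 2000 bp, 2992 whose body overlapped another gene on the strand were left out. Reads were counted by 5′ end. Intergenic background lay more than 10000 bp from genes, with assembly gaps of at least 1000 bp and loci similar to ribosomal DNA left out. Pausing used one-sided Fisher exact tests with Benjamini-Hochberg adjustment over genes with at least 5 promoter reads in that library. Ratios between libraries are of the reads as counted, with exact conditional 95% intervals; a count of 0 was replaced by a floor of 3 reads, and for 4-fold calls and their alternatives every count under 3 was raised to it. An edgeR test had been planned for separable samples and was not made, since the reads carry no sample name. Scripts were tested on simulated data. Tools were Python 3.11.15, numpy 2.4.6, pandas 2.3.3, scipy 1.17.1, matplotlib 3.10.9, R 4.3.3 and edgeR 4.0.16 (TMM factors alone).

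Members and lists were chosen with earlier results of these data known. Full values were given for members with at least 20 promoter or 50 body reads in 1 library; other members were named to account for all 44, and from each comparison list at most 4 genes with the most MESC promoter reads qualified. Sox8 and Myod1 were named as a count of 5 or fewer. Some genes of the lists are not reported here. The alternatives changed read minimums, windows, starts, duplicates, depth, read length, overlap, fold and scaling.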

Additional observations from a re-analysis of the deposited data

How the results depend on the processing

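Results were recomputed under 22 alternatives, 21 planned and 1, RefSeq starts, added after seeing the data. Values of 132 comparisons of counts were close to those reported and 30 moved. Closeness was judged by the size of the count alone, whichever members it held. A change from 8 to 11 members, as for promoter and body together in MESC with the most-read start, still passed as close. With a minimum of 3 promoter reads, 2 of 13 members in MESC had a read promoter and a body at background, against 3.32% of all genes. Promoter above body density held 11 of 13 there, against 79.8%, and upstream antisense reads 5 of 29, against 38.8%. With a minimum of 10, promoter and body together held 4 members in MESC and 2 in MEF, promoter above body density 4 and 2, and antisense 1 and 1. With a minimum of 20 these were 1 and 2, 1 and 2, and 1 and 0. Bodies from 3000 bp gave 1 of 7 members in MESC and 1 of 5 in MEF (Msx1) with a body at background, against 2.76% and 2.33%. The most-read start gave 1 of 3 promoters 4-fold higher in MESC (Pax6), against 6.76% of all genes. A window of 200 bp before to 500 bp after the TSS gave 1 of 2 in MEF (Tbx15), against 3.17%. So did a 2-fold threshold, against 9.39%. MESC reads of 35 bases gave 2 of 6 members (Emx2 and Msx1) with a body at background, against 1.80% of all genes. They gave 4 of 39 with promoter and body, against 30.4%, and 1 of 29 with antisense reads, against 22.3%. Those of 36 bases gave 4 of 39 with promoter and body, against 31.7%. Promoter above body density held 4 of 4 there, against 89.8%, and antisense reads 1 of 29, against 24.8%. These fits hold fewer reads. With no read minimum, 8 of 33 bodies passed 4-fold towards MESC and 9 towards MEF, against 8.84% and 5.66% of all genes. With 20 body reads, 8 and 9 of 22 did, against 10.2% and 6.14%. The body ratio of Gata6 turned to a log2 of 0.07 with 36-base reads, and the cause was not tested. Median scaling moved all log2 body ratios by 0.30 and TMM by 0.24, with no change in the members called. Most promoter windows held fewer than 5 reads, which limits their precision. Leaving out replicates and a replicate block were not run. No paired analysis was possible because the reads of a cell type are pooled and carry no sample name.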
